A study of Mus musculus with 10 samples.

Results

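Genes of microglia and of the macrophages at the borders of the brain were followed in the pons, medulla and rostral spinal cord of newborn mice that lack the transcription factor Nkx2.2. The set holds 37 genes listed for their known roles in these cells, and every probe set of the array annotated to a listed symbol was taken. This gave 57 of 45101 probe sets, for 36 of the 37 genes; Spp1 was not analysed here. Of the 36, 24 had 1 probe set and 12 had several. The Nkx2.2-/- group was 5 mice (replicates 11, 12, 22, 29 and 43) and the WT group was 5 wild-type littermates (replicates 14, 15, 16, 18 and 21), all of strain C57BL/6, with 1 array per mouse. All mice were perfused with buffered saline at 1.5 to 2 days of age, and the tissue was dissected from frozen 20 µm sections. Loss of Nkx2.2 is not limited to a cell type by the label, and the labels name neither litter nor sex. RNA was read from the whole tissue, so fewer microglia and less RNA per microglial cell cannot be told apart.

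Microglia are the resident macrophages of the brain and spinal cord. They arise from yolk sac progenitors, depend on signalling through the receptor Csf1r and on the transcription factor PU.1, which Spi1 encodes, and in newborn white matter they take up dying cells and support developing oligodendrocytes. Border macrophages lie in the meninges and around vessels and carry scavenger receptors such as Mrc1, Cd163 and Lyve1. The genes are described in the order of homeostatic microglial genes, complement C1q, phagocytic and lysosomal genes, general myeloid genes and border macrophage genes.

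None of the 57 probe sets differed between Nkx2.2-/- and WT mice by the test over all probe sets (limma, Benjamini-Hochberg adjusted p of 0.9997 or more for each). The background was low, since 23 of 45037 probe sets tested fell and 0 rose, or 0.0511%. At an unadjusted limma p under 0.05 there were 3 member probe sets, 1 of Ly86 and 2 of Laptm5, which is 5.26% of the members against 3.43% of all probe sets. The arrays did separate the genotypes where a difference was large. Nkx2-2 itself averaged 4.51 ± 0.207 in Nkx2.2-/- mice and 6.55 ± 0.186 in WT mice (log2 values, SD, n = 5 each), with a limma adjusted p of 7.2e-05. Mbp, the myelin basic protein gene, averaged 8.05 ± 0.499 in Nkx2.2-/- mice and 10.8 ± 0.245 in WT mice (SD, n = 5 each, limma adjusted p = 4.4e-04).

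The differences of the microglial and macrophage genes were small. Taking for each gene its brightest probe set, the one of highest mean over the 10 arrays, the log2 differences ran from -0.21 in C1qa to 0.10 in Runx1, with a median of -0.04 against a median of -0.0042 over 18193 genes. In sign, 28 of 36 genes were lower in Nkx2.2-/- mice, or 77.8%, against 53.0% of all genes. Counted over probe sets, 34 of 57 were lower, or 59.6%, against 49.2% of all probe sets. For 35 of 36 genes the 95% interval of the difference lay within 0.5 of zero on the log2 scale, and for 23 within 0.25. C1qa was the exception, with an interval from -1.01 to 0.58. Signal limits this reading, because RMA gives no detection call and 12 of the 36 brightest probe sets averaged below 5.09, the median of all probe sets, where differences are compressed. These 12 are P2ry12, P2ry13, Gpr34, Lgals3, Itgam, Itgb2, Ptprc, Spi1, Irf8, Cd14, Cd53 and Cd163.

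**Figure D1:**
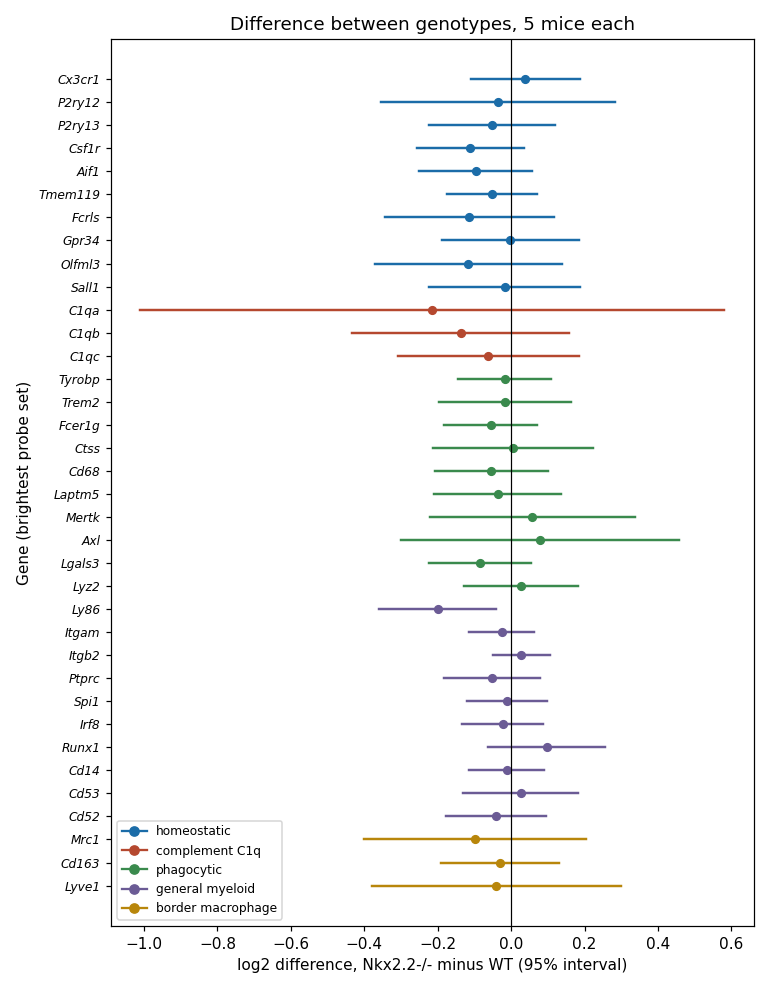
Log2 difference between Nkx2.2-/- and WT mice (points, horizontal axis) with its 95% interval from limma (lines) for the brightest probe set of each of 36 genes, coloured by role. The interval of Ly86 lies below zero and those of the other 35 genes span zero, the widest being that of C1qa.

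**Figure D2:**
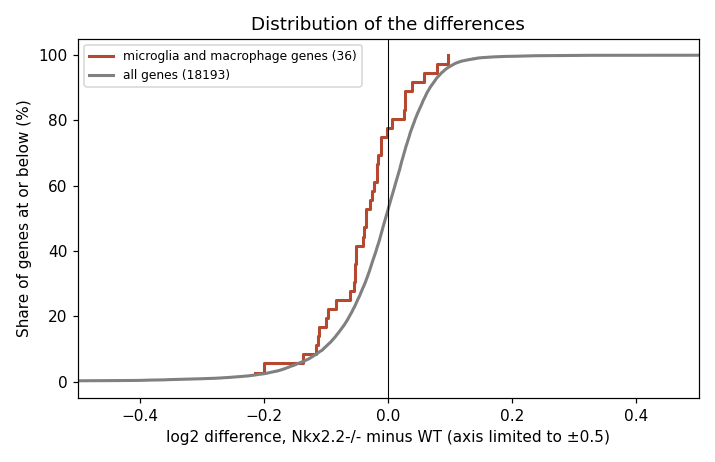
Share of genes (vertical axis, percent) at or below a given log2 difference between Nkx2.2-/- and WT mice, for the 36 microglia and macrophage genes and for 18193 genes. The curve of the members lies to the left of that of all genes around zero, with a median of -0.04 against -0.0042, and no member is beyond -0.21 or 0.10.

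Promoter windows are shown for 4 genes described below: C1qb and C1qc, which varied together between mice, Ly86, the member with the lowest p, and Mrc1, a border macrophage receptor. No expression result below uses the windows, and a link between them and expression was not tested. The windows are from RefSeq, build GRCm38.p6, and hold 250 bases before and 50 after the annotated start, 5′ to 3′ on the strand of the gene. Capitals mark the letters GAGGAAG on either strand (CTTCCTC on the printed one), a purine box of the kind that PU.1 binds. C1qb lies at chr4:136886151-136886450 and C1qc at chr4:136892865-136893164, both on the minus strand, Ly86 at chr13:37345095-37345394 and Mrc1 at chr2:14229164-14229463, both on the plus strand.
C1qb: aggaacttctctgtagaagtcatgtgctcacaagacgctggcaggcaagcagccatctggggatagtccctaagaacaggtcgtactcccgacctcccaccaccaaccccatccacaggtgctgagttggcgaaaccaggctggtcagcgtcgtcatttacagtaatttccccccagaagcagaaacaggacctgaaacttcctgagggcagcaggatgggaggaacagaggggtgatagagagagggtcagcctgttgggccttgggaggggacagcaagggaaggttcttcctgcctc
C1qc: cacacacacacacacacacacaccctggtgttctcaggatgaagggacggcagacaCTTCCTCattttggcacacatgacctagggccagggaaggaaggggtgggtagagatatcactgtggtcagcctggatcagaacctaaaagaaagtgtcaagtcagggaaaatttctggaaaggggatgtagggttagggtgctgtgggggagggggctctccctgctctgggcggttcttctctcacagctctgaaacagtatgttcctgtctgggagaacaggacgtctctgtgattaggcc
Ly86: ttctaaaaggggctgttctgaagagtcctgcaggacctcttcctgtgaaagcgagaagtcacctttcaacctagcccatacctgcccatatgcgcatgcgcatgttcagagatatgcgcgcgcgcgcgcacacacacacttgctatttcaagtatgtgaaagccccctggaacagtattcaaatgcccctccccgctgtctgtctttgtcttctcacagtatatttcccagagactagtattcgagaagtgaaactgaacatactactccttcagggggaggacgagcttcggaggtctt
Mrc1: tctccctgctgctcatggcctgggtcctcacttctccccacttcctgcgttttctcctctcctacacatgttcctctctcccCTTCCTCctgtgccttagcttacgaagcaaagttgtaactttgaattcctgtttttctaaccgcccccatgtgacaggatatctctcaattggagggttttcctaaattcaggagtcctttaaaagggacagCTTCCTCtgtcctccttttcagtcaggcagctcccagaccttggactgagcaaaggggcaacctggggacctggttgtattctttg
The windows of C1qb and Ly86 hold no match to these exact letters. That of C1qc holds 1, whose first letter is at -194 from the start, and that of Mrc1 holds 2, at -168 and -36, all on the opposite strand. Of 27 member genes with a window in the table, 11 held a match, or 40.7%, against 15.4% of 27025 genes, with no test made of the difference. Both member counts include Spp1, whose expression was not analysed here. Other member genes with a match include P2ry13, Fcrls, Ctss, Cd53, Laptm5, Axl, Itgam and Trem2. A match says only that these letters are in the window.

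Homeostatic genes, the set that marks resting microglia, did not separate the genotypes: 0 of 10 passed in either direction, 9 were lower in sign, and the median log2 difference was -0.05. Csf1r, the receptor for Csf1 and Il34 on which microglia depend, read 7.82, 8.06, 8.02, 8.05 and 8.07 in Nkx2.2-/- replicates 11, 12, 22, 29 and 43, against 8.23, 8.16, 7.95, 8.04 and 8.18 in WT replicates 14, 15, 16, 18 and 21. The groups overlapped, with Nkx2.2-/- replicate 11 below all the others. Csf1r differed by -0.11 on the log2 scale (95% interval -0.26 to 0.03). Its dimmer probe sets gave log2 differences of -0.02 and 0.04. Tmem119, a surface protein of microglia, read 5.66, 5.68, 5.63, 5.55 and 5.63 in Nkx2.2-/- mice and 5.64, 5.81, 5.59, 5.80 and 5.57 in WT mice, in the same order of replicates. The groups overlapped in part, with WT replicates 15 and 18 above every Nkx2.2-/- mouse and Nkx2.2-/- replicate 29 below every WT mouse. Tmem119 differed by -0.05 on the log2 scale (95% interval -0.17 to 0.07).

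P2ry12, the receptor by which microglial processes follow purine nucleotides, read 4.90, 4.95, 4.83, 5.07 and 5.50 in Nkx2.2-/- replicates 11, 12, 22, 29 and 43, against 5.24, 4.96, 5.45, 4.93 and 4.84 in WT replicates 14, 15, 16, 18 and 21. High and low mice occurred in both groups, and the log2 difference was -0.04 (95% interval -0.35 to 0.28). P2ry13, a related purine receptor, differed by -0.05, and Gpr34, a lysophospholipid receptor of microglia, by -0.0019. Cx3cr1, the fractalkine receptor, was the only homeostatic member of positive sign, at 0.04 in its brightest probe set and 0.0084 in the other. Aif1, which encodes the microglial protein Iba1, differed by -0.10.
Fcrls, an Fc receptor-like protein of mouse microglia, averaged 6.02 ± 0.138 in Nkx2.2-/- mice and 6.13 ± 0.220 in WT mice (SD, n = 5 each). Olfml3, a secreted protein, averaged 5.91 ± 0.146 in Nkx2.2-/- mice and 6.03 ± 0.251 in WT mice (SD, n = 5 each). Each of these differences was smaller than the spread between WT mice. Sall1, a transcription factor of microglial identity that other neural cells also use, differed by -0.02 and 0.06 in its probe sets. The ligands of microglial receptors, among them Csf1, Il34, Cx3cl1, Cd200 and Tgfb1, had 0 of 8 members past the test, 4 of each sign, and a median log2 difference of -7.6e-04. Cd200, a neuronal surface protein that restrains microglia, had the lowest p of them at a log2 difference of -0.09.

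**Figure D3:**
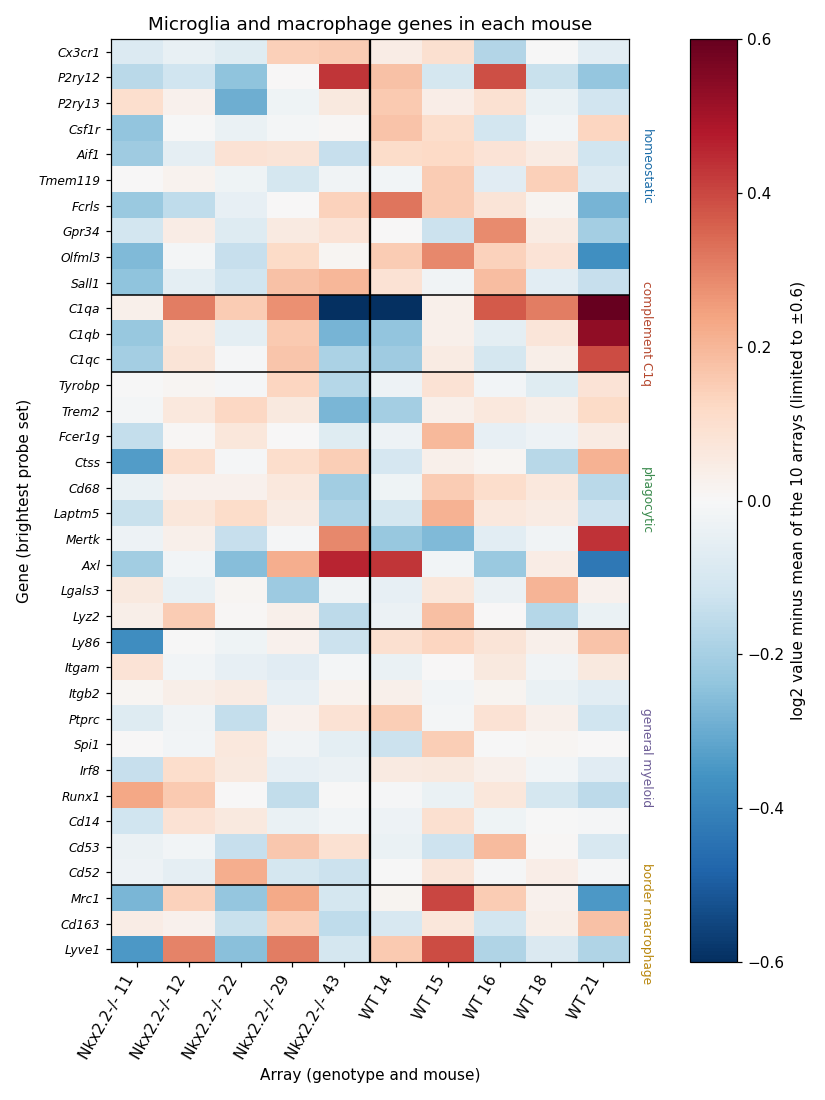
Log2 value of each gene's brightest probe set minus its mean over the 10 arrays (colour), for 36 genes (rows, by role) and 10 mice (columns, Nkx2.2-/- left of WT). Blue and red mark mice below and above that mean; Nkx2.2-/- replicate 11 is below it in 26 of 36 genes and WT replicate 15 above it in 27.

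Single mice differed more than the genotypes did. Nkx2.2-/- replicate 11 was below the 10-array mean in 26 of 36 genes, and WT replicate 15 was above it in 27. The mean deviation over the 36 genes ran from -0.10 to 0.05 in Nkx2.2-/- mice and from -0.01 to 0.07 in WT mice, on the log2 scale. Without Nkx2.2-/- replicate 11 the median difference over the members was -0.02, and without WT replicate 15 it was also -0.02.

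The complement genes C1qa, C1qb and C1qc encode the chains of C1q, the recognition molecule of the classical pathway, which in brain comes mainly from microglia and tags synapses and debris. All 3 were lower in sign in Nkx2.2-/- mice, and 0 of 3 passed. C1qb read 6.77, 7.07, 6.95, 7.16 and 6.73 in Nkx2.2-/- replicates 11, 12, 22, 29 and 43, against 6.77, 7.03, 6.95, 7.08 and 7.54 in WT replicates 14, 15, 16, 18 and 21. The groups overlapped apart from WT replicate 21, which stood above all other mice. C1qb differed by -0.14 on the log2 scale (95% interval -0.43 to 0.16). Its dimmer probe sets gave log2 differences of -0.17 and -0.12. C1qc read 6.61, 6.89, 6.80, 6.98 and 6.63 in Nkx2.2-/- mice and 6.60, 6.86, 6.71, 6.85 and 7.20 in WT mice, in the same order, with a log2 difference of -0.06 (95% interval -0.31 to 0.18). WT replicate 21 was again the highest.

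C1qa read 6.53, 6.81, 6.65, 6.78 and 5.21 in Nkx2.2-/- replicates 11, 12, 22, 29 and 43, against 5.56, 6.53, 6.87, 6.81 and 7.28 in WT replicates 14, 15, 16, 18 and 21. Its low values were in Nkx2.2-/- replicate 43 and WT replicate 14. On the same arrays the 5 prime Gapdh control probe set was dim. The log2 value of the 3 prime Gapdh probe set minus that of the 5 prime one was 3.78 in Nkx2.2-/- replicate 43 and 2.13 in WT replicate 14, and -0.32 to 0.13 in the other 8 mice. The log2 difference of C1qa was -0.21 with all arrays, 0.08 without Nkx2.2-/- replicate 43, -0.48 without WT replicate 14 and -0.18 without both. On the 8 other arrays C1qa averaged 6.69 ± 0.127 in Nkx2.2-/- mice and 6.87 ± 0.308 in WT mice (SD, n = 4 each). These arrays were the lowest pair of the 10 in 4 of 36 members, namely C1qa, C1qb, Trem2 and Spi1, or 11.1%, against 8.40% of all genes, and the highest pair in Axl alone, or 2.78% against 14.9%. The part of the Gapdh signal in the C1qa values was not tested.

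Single mice also set the size of the C1q difference. The median over the 3 genes was -0.14, against -0.02 without WT replicate 21, -0.02 without Nkx2.2-/- replicate 43 and -0.21 without WT replicate 14. Although the genotypes overlapped, C1qb and C1qc varied together over the 10 mice, with Pearson's r = 0.982 and Spearman's rho = 0.927 (permutation test, two-sided, adjusted p = 2.5e-04 and 0.0014 over 5 pairs, raw p = 5.0e-05 and 2.8e-04). Without the 2 mice farthest from the median of C1qb, r was 0.973 (exact permutation p = 3.2e-04), and over the 8 arrays without low 5 prime Gapdh signal it was 0.978 (exact permutation p = 1.7e-04). C1qa followed C1qb less closely, with r = 0.770 and rho = 0.733 (permutation test, adjusted p = 0.0157 and 0.0338, raw p = 0.00944 and 0.0203). Over the 8 arrays r was 0.862 and rho 0.476 (exact permutation p = 0.0166 and 0.243, adjusted p = 0.0295 and 0.405), so the rank correlation no longer passed. For C1qa and C1qc, r was 0.727 and rho 0.612 (permutation test, adjusted p = 0.0220 and 0.0837, raw p = 0.0176 and 0.0669), and over the 8 arrays r was 0.761 and rho 0.333 (exact permutation p = 0.0373 and 0.428). Those 8 are also what remains after leaving out the 2 mice farthest from the median of C1qa. The 5 pairs correlated here and below were chosen with values in view, and their p-values do not allow for that choice. Correlations of other gene pairs over these arrays were not examined. Of the other complement genes listed, 7 of 12 were measured and 0 passed, with a median log2 difference of 0.03. C3ar1, the receptor for the C3a fragment, had the lowest p of them at 0.06.

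**Figure D4:**
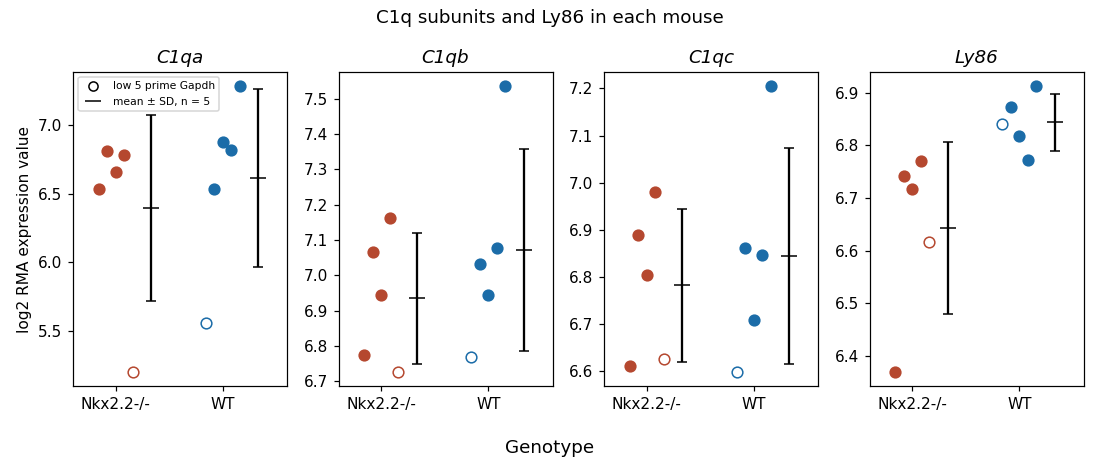
Log2 RMA value (vertical axis) of C1qa, C1qb, C1qc and Ly86 in each Nkx2.2-/- mouse and each WT mouse, with the mean and SD (n = 5) beside the points and open circles for the arrays of low 5 prime Gapdh signal. The open circles are the lowest C1qa values, at 5.21 and 5.56, and the groups are adjacent but do not overlap for Ly86.

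The phagocytic and lysosomal genes did not separate the genotypes, with 0 of 10 past the test, 6 lower in sign and a median log2 difference of -0.02. Tyrobp, the adaptor DAP12, read 6.53, 6.55, 6.53, 6.66 and 6.36 in Nkx2.2-/- replicates 11, 12, 22, 29 and 43, against 6.503, 6.62, 6.52, 6.46 and 6.62 in WT replicates 14, 15, 16, 18 and 21. Trem2, the lipid-sensing receptor that signals through Tyrobp, read 5.19, 5.27, 5.33, 5.27 and 4.93 in Nkx2.2-/- mice and 5.003, 5.23, 5.27, 5.24 and 5.32 in WT mice, in the same order. Both genes overlapped between the groups, at a log2 difference of -0.02 each, and both were lowest in Nkx2.2-/- replicate 43. Over the 10 mice they gave r = 0.675 and rho = 0.382 (permutation test, adjusted p = 0.0350 and 0.279, raw p = 0.0350 and 0.279). The relation rested on the outlying mice: r was 0.336 without the 2 farthest from the median of Tyrobp and 0.154 over the 8 arrays (exact permutation p = 0.420 and 0.713).

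Ctss, the lysosomal protease cathepsin S, read 7.74, 8.17, 8.06, 8.18 and 8.22 in Nkx2.2-/- replicates 11, 12, 22, 29 and 43, against 7.97, 8.10, 8.09, 7.90 and 8.28 in WT replicates 14, 15, 16, 18 and 21. The groups overlapped, and the log2 difference was 0.0053 (95% interval -0.21 to 0.22). Fcer1g, the common Fc receptor chain, differed by -0.06, and Cd68, a lysosomal membrane protein of phagocytes, by -0.05. Lgals3, the galectin of phagocytic macrophages, differed by -0.08 and Lyz2, lysozyme, by 0.03. Mertk and Axl, receptors for the bridging ligand Gas6 that astrocytes also express, had log2 differences of 0.06 and 0.08, and each had intervals on both sides of zero.
Laptm5, a lysosomal membrane protein of blood-derived cells, was read by 5 probe sets that did not move alike, with log2 differences from -0.17 to 0.04. The brightest differed by -0.04. The pair of Laptm5 probe sets with unadjusted limma p of 0.0330 and 0.0416 differed by -0.14 and -0.17, and neither passed (limma adjusted p = 0.9997 each).

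Among genes of microglial activation and of white matter phagocytes, 0 of 16 measured passed, 2 had an unadjusted limma p under 0.05, 7 were lower in sign, and the median log2 difference was 0.0026. Those shares were 12.5% and 43.8%, against 3.43% of all probe sets and 53.0% of all genes. Of the 16 genes, 10 averaged below the median of all probe sets, where differences are compressed. Lpl had the largest log2 difference of the 16, at -0.65 (95% interval -1.18 to -0.11). It read 6.56 to 6.95 in Nkx2.2-/- mice and 6.71 to 8.07 in WT mice, so the groups overlapped. Lpl did not pass the test over all probe sets. Cd9, a tetraspanin that oligodendrocytes also express, had the lowest p of the 16, averaging 7.72 ± 0.0436 in Nkx2.2-/- mice and 8.004 ± 0.139 in WT mice (SD, n = 5 each, limma adjusted p = 0.618). The groups did not overlap for Cd9, 1 of 16 in this list, while 0.442% of all probe sets were separated in that direction. The myelin genes listed as oligodendrocyte markers fell in 6 of 7 measured cases beside it, and the part of oligodendrocytes in the Cd9 signal was not tested. Of 11 lysosomal genes shared by many cell types 0 passed, 4 had an unadjusted limma p under 0.05 and 10 were lower in sign, with a median of -0.10. Those shares were 36.4% and 90.9%, against 3.43% of all probe sets and 53.0% of all genes. Lamp2, a lysosomal membrane protein, had the lowest p of the 11 and averaged 7.40 ± 0.129 in Nkx2.2-/- mice and 7.71 ± 0.118 in WT mice (SD, n = 5 each, limma adjusted p = 0.772). The groups did not overlap for Lamp2 either, lower in Nkx2.2-/- mice, 1 of 11 in its list.

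Of the general myeloid genes, 0 of 10 passed, 7 were lower in sign and the median log2 difference was -0.02. Ly86, which encodes MD-1, the partner of the toll-like receptor homologue RP105, stood nearest to the threshold. It read 6.37, 6.74, 6.72, 6.77 and 6.62 in Nkx2.2-/- replicates 11, 12, 22, 29 and 43, against 6.84, 6.87, 6.82, 6.77 and 6.91 in WT replicates 14, 15, 16, 18 and 21. The groups were adjacent without overlap, since Nkx2.2-/- replicate 29 read 6.7709 and WT replicate 18 read 6.7717. The log2 difference was -0.20 (95% interval -0.36 to -0.04), or 1.15-fold lower, and did not pass (limma adjusted p = 0.9997). Before adjustment the limma p of Ly86 was 0.0180. Without Nkx2.2-/- replicate 11, the lowest mouse, the log2 difference was -0.13, and it ran from -0.23 to -0.18 without any other mouse. Ly86 was the only one of 57 member probe sets with separated groups, lower in Nkx2.2-/- mice in its case, and 0.442% of all probe sets were separated in that direction and 0.315% in the other.

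Spi1, the gene of PU.1, differed by -0.01 (95% interval -0.12 to 0.10) and Irf8, its partner in microglial development, by -0.02 in its brightest probe set and 0.09 in the other. Runx1, a transcription factor of blood and microglial precursors, was higher in sign in all 6 of its probe sets, with log2 differences from 0.01 to 0.10. Apart from the brightest, these probe sets were dim, averaging 4.26 to 4.78, below the median of all probe sets. The brightest probe set of Runx1 read 5.84, 5.77, 5.62, 5.46 and 5.61 in Nkx2.2-/- mice and 5.61, 5.57, 5.68, 5.50 and 5.46 in WT mice, in the order of replicates given above. The groups overlapped and the 95% interval ran from -0.06 to 0.26. Itgam and Itgb2, the chains of the complement receptor CR3, differed by -0.03 and 0.03, both in dim probe sets. The brightest probe sets of Spi1, Irf8, Ptprc, Cd14 and Cd53 were dim as well, which limits what their small differences can show. Ptprc, the leukocyte antigen CD45, differed by -0.05, Cd14, a co-receptor for bacterial lipopolysaccharide, by -0.01, Cd53, a leukocyte tetraspanin, by 0.03, and Cd52, a small surface glycoprotein of leukocytes, by -0.04.
Of 24 other microglial genes measured, 0 passed, 2 had an unadjusted limma p under 0.05 and 17 were lower in sign, with a median of -0.03. Those shares were 8.33% and 70.8%, against 3.43% of all probe sets and 53.0% of all genes. Adgre1, an adhesion receptor that marks mouse macrophages, had the lowest p of the 24. It read 5.27, 5.39, 5.34, 5.28 and 5.32 in Nkx2.2-/- mice and 5.60, 5.57, 5.56, 5.42 and 5.40 in WT mice, in the same order. The groups did not overlap for Adgre1, 1 of 24 in this list, while 0.442% of all probe sets were separated in that direction. Its log2 difference of -0.19 did not pass (limma adjusted p = 0.9997). Genes of blood neutrophils, monocytes, lymphocytes and mast cells had a mean level of 4.95 to 5.07 in Nkx2.2-/- mice and of 4.95 to 4.99 in WT mice, with 4 of 18 above the median of all probe sets, 5 of 18 lower in sign and 0 past the test.

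The border macrophage genes Mrc1, Cd163 and Lyve1 had 0 of 3 past the test and a median log2 difference of -0.04. Mrc1, the mannose receptor CD206, read 4.96, 5.37, 4.998, 5.46 and 5.13 in Nkx2.2-/- replicates 11, 12, 22, 29 and 43, against 5.25, 5.63, 5.38, 5.26 and 4.89 in WT replicates 14, 15, 16, 18 and 21. Lyve1, the hyaluronan receptor that lymphatic endothelium also carries, read 5.35, 6.00, 5.45, 6.01 and 5.60 in Nkx2.2-/- mice and 5.86, 6.09, 5.52, 5.61 and 5.52 in WT mice, in the same order. Both genes overlapped between the groups and were highest in WT replicate 15. The log2 differences were -0.10 for Mrc1 (95% interval -0.40 to 0.20) and -0.04 for Lyve1 (95% interval -0.38 to 0.30). Cd163, the haemoglobin scavenger receptor, differed by -0.03. Mrc1 and Lyve1 varied together over the 10 mice, with r = 0.824 and rho = 0.830 (permutation test, adjusted p = 0.0116 and 0.0125, raw p = 0.00466 and 0.00499). Without the 2 mice farthest from the median of Mrc1, r was 0.772, and over the 8 arrays without low 5 prime Gapdh signal it was 0.835 (exact permutation p = 0.0298 and 0.0177). Without those 2 farthest mice rho was 0.738 and no longer passed (exact permutation, adjusted p = 0.115), while over the 8 arrays rho was 0.857 (exact permutation, adjusted p = 0.0268).

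The 8 meningeal genes were lower in sign in all 8 cases, with a median of -0.40 and 0 past the test. Their mean level read 6.59, 7.06, 6.48, 6.87 and 6.79 in Nkx2.2-/- replicates 11, 12, 22, 29 and 43, against 7.22, 7.84, 6.94, 7.34 and 6.39 in WT replicates 14, 15, 16, 18 and 21. WT replicate 15 was highest for these too, and WT replicate 21 lowest, as it was for Mrc1. Lyve1 was instead lowest in Nkx2.2-/- replicate 11, at 5.35, and Cd163 was highest in WT replicate 21, at 4.85. With the meningeal mean as a covariate the log2 difference was 0.10 for Mrc1 and 0.16 for Lyve1, so both turned in sign, and the median over the 36 genes was -0.0075. None of the 36 genes passed in this fit (limma adjusted p of 0.9999 or more). The covariate was itself lower in sign in Nkx2.2-/- mice, so the fit does not fully separate it from genotype. The C1q median was -0.22 in that fit and Ly86 differed by -0.19. Of 13 other border macrophage genes 0 passed and 9 were lower in sign, with a median of -0.02; Folr2, a folate receptor of these cells, had the lowest p of them at a log2 difference of -0.07.

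**Figure D5:**
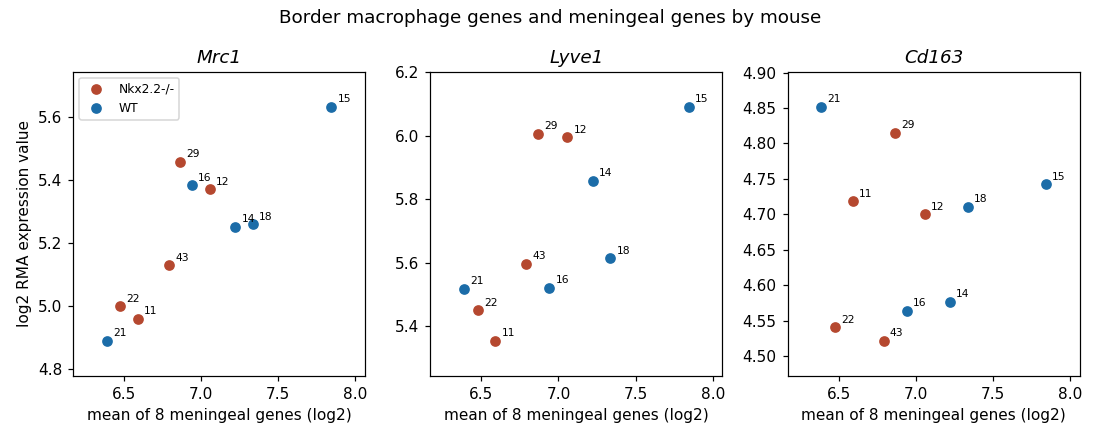
Log2 RMA value (vertical axes) of Mrc1, Lyve1 and Cd163 against the mean log2 level of 8 meningeal genes (horizontal axes) in 5 Nkx2.2-/- and 5 WT mice, numbered by replicate. WT replicate 15 has the highest meningeal mean, 7.84, and the highest Mrc1 and Lyve1, and Cd163 is highest in WT replicate 21.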

How the data were processed

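RNA was extracted with TRIzol from sections of the pons, medulla and rostral spinal cord, and biotinylated cRNA was put on arrays, 1 per mouse, per the labels' protocols. Per the submitters' processing notes the authors used RMA (no version was found in the labels), and what they deposited is 1 log2 value for each probe set and array. RMA equalises array distributions, so a change shared by most genes is hidden. Array medians were 5.07 to 5.12. The number of arrays limits the precision. The limma p-values set each genotype difference against the spread between these mice, with variances moderated over all probe sets.

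Gene symbols came from the platform annotation. Of 45101 probe sets, 64 were controls and were left out, 34945 had 1 symbol, 932 several and 9160 were unnamed here. No member probe set had several symbols. All 36 measured members matched the RefSeq gene table by Entrez number, with 0 symbols changed. Nkx2.2-/- and WT arrays were compared over 45037 probe sets in limma 3.58.1 (R 4.3.3, functions lmFit and eBayes), with no covariate and no filter, and Benjamini-Hochberg adjustment at 0.05. The fit was tested on simulated data with changes larger than the log2 difference of any member, so its sensitivity to smaller ones was not tested. Differences are Nkx2.2-/- minus WT. Correlations over 10 mice used 100000 permutations and those over 8 used all of them (Python 3.11.15, pandas 2.3.3), for 5 pairs chosen, with values in view, for a shared complex or cell type. Figures used matplotlib 3.10.9.

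The members and lists were chosen with earlier results of these data known. Named genes were every member, Nkx2-2 and Mbp as checks, and in each companion list any gene past the threshold and the gene of lowest p. Lpl was named besides, as the activation gene with the largest log2 difference. Of the marker lists, 6 endothelial, 5 neuronal, 5 astrocyte, 3 red cell and 6 mitosis genes were measured, with 0 past the test (6 mitosis and 1 astrocyte gene had an unadjusted limma p under 0.05) and median log2 differences of 0.01, 0.01, -0.11, -0.0087 and -0.60. That is 100% of the mitosis genes, all 6 lower in sign, and 20% of the astrocyte genes, against 3.43% of all probe sets. The fit was repeated after quantile normalization, after setting arrays to a common median, without dim probe sets, with 1 probe set or the mean of probe sets per gene, an intensity trend, a threshold of 0.1, a meningeal covariate, and leaving out arrays.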

Additional observations from a re-analysis of the deposited data

Results flagged for a closer look

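In 5 of the 72 groups of 5 mice formed by 36 genes and 2 genotypes, 1 mouse stood apart from its group by Dixon's 95% criterion, and chance gives about 1 in 20. Csf1r was low in Nkx2.2-/- replicate 11, at 7.82 against 8.02 in the next mouse. C1qa was low in Nkx2.2-/- replicate 43, at 5.21 against 6.53. Cd52 was high in Nkx2.2-/- replicate 22, at 5.31 against 5.07. Trem2 was low in WT replicate 14, at 5.003 against 5.23. Cd14 was high in WT replicate 15, at 5.05 against 4.95. Nkx2.2-/- replicate 43 and WT replicate 14 are the arrays of low 5 prime Gapdh signal.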

How the results depend on the processing

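The count of member probe sets past the test was 0 in every alternative and without any 1 array, and so was that of the 6 companion lists of other microglial, border macrophage, ligand, complement, activation and lysosomal genes, while limma calls over all probe sets or genes ran from 11 to 31. With 1 array left out, the median log2 difference ran from -0.0475 to -0.0181 over all members, -0.0909 to -0.0210 over homeostatic, -0.213 to -0.0212 over C1q, -0.0473 to 8.5e-05 over phagocytic, -0.0283 to -0.0024 over general myeloid and -0.121 to -9.2e-05 over border macrophage genes. Many log2 differences changed sign, among them the largest, that of C1qa, and none of these genes was past the test. After quantile normalization this was Tyrobp at 0.0098, and with a common median Gpr34 at 0.0024. When probe sets were averaged by gene it was Sall1 at 0.0227, Trem2 at 0.0138, Irf8 at 0.0331. On the 8 arrays with similar Gapdh signals it was Tyrobp at 0.0130, Ctss at -0.0551, Mertk at -0.0574, Lyve1 at 0.0157. With the meningeal covariate it was Tmem119 at 0.0090, Gpr34 at 0.0213, Olfml3 at 0.0487, Sall1 at 0.0188, Ctss at -0.0164, Cd68 at 0.0108, Laptm5 at 0.0330, Mertk at -0.0748, Spi1 at 0.0078, Irf8 at 0.0101, Cd14 at 0.0164, Mrc1 at 0.0979, Lyve1 at 0.158, and the medians over border macrophage and homeostatic genes turned too, to 0.0979 and 0.0029. With 1 array left out, the differences that changed sign were Cx3cr1 from -2.9e-04 to 0.0679, P2ry12 from -0.148 to 0.0564, P2ry13 from -0.0886 to 0.0133, Gpr34 from -0.0533 to 0.0688, Sall1 from -0.0696 to 0.0404, C1qa from -0.478 to 0.0831, C1qc from -0.123 to 0.0284, Tyrobp from -0.0516 to 0.0234, Trem2 from -0.0685 to 0.0507, Ctss from -0.0361 to 0.0901, Laptm5 from -0.0715 to 0.0121, Mertk from -0.0079 to 0.173, Axl from -0.0256 to 0.196, Lyz2 from -0.0128 to 0.0748, Spi1 from -0.0448 to 0.0237, Irf8 from -0.0522 to 0.0086, Cd14 from -0.0352 to 0.0160, Cd53 from -0.0118 to 0.0762, Cd163 from -0.0687 to 0.0109, Lyve1 from -0.121 to 0.0527. The cause was not tested. Of 36 genes, 12 kept their sign in every run. Dim probe sets limit what 12 of 36 genes can show. The correlation of Tyrobp and Trem2 lost its call without outlying arrays, at r = 0.154 and 0.336. The rank correlations of C1qa with C1qb (rho = 0.476) and, without the 2 farthest mice, of Mrc1 with Lyve1 (rho = 0.738) lost theirs too. Both of those array sets were chosen for the correlations after seeing the data. No paired analysis was possible because the labels do not say which mice share a litter.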
